A study of Homo sapiens with 4 samples.

Results

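The genes described here encode the human conjugating enzymes of the UGT, SULT and GST families, measured in Caco-2 cells, an established colorectal adenocarcinoma line that acquires features of absorptive enterocytes after confluence. Members were all genes that a probe set of the array names alone, with a symbol of the UGT1A, UGT2A, UGT2B, UGT3A, SULT, GSTA, GSTM, GSTO, GSTP, GSTT, GSTK or MGST series, pseudogenes left out. There were 36 such genes among the 18417 genes with a symbol of their own on the array: 8 UGT, 10 SULT and 18 GST or MGST genes. Where a gene had several probe sets, the brightest of them, by its mean on all 4 arrays, was taken. No single UGT1A gene was a member, because the 9 UGT1A symbols share 1 probe set.

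Cells were grown on collagen-coated Transwell inserts, porous supports with an apical and a basolateral side, or on regular 6-well plates. They were kept for 3 h with sodium cholate, a primary bile acid, at 2 mM, or with vehicle. The 4 conditions were thus cholate on Transwell, vehicle on Transwell, cholate on plates and vehicle on plates. On inserts cholate was added to the apical side, and it was dissolved in a salt solution without calcium; no source used here gives the composition of the vehicle. Each condition is 1 array, hybridised with RNA pooled from 3 samples, so no value has a replicate and differences between 2 arrays carry no test. All 4 arrays are labelled 21 days of differentiation, but by the growth protocol plates were used at 14 days and inserts at 14 to 21 days. Support and days in culture therefore cannot be told apart. Values are log2 intensities made by the authors with RMA, a method that removes background, makes arrays comparable and combines probes into 1 value per probe set. Intensities of different probe sets do not rank the transcripts of different genes.

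Conjugating enzymes make lipophilic compounds water-soluble so that they can be exported. UDP-glucuronosyltransferases (UGT) attach glucuronic acid in the endoplasmic reticulum, cytosolic sulfotransferases (SULT) attach sulfate from the donor PAPS, and glutathione S-transferases (GST, with the membrane-bound MGST) join glutathione to electrophiles. In the intestinal epithelium they act on food constituents, drugs, steroids and bile acids before these reach the blood.

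Of the 36 members, 23 lay above the floor, which was the 40th percentile of the mean over the 4 arrays of all probe sets, a log2 intensity of 4.84. They were 4 of 8 UGT, 5 of 10 SULT and 14 of 18 GST and MGST genes. The lowest member above the floor, GSTO2, averaged 5.13 and the highest one under it, GSTM2, averaged 4.43. The 13 members under the floor were GSTA5, GSTM2, GSTM5, GSTT1, SULT1C3, SULT1C4, SULT1E1, SULT4A1, SULT6B1, UGT2B17, UGT2B28, UGT3A1 and UGT3A2, and each of them read under the floor on every array. Differences among values that low can be compressed by background correction.

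The label of the cells was set against marker genes. All 13 measured markers of intestinal epithelium lay above the floor, among them the villin gene VIL1 and the cadherin gene CDH1. PTPRC and CD3E, which define leukocytes, DCN and LUM of fibroblasts, and CDH5, KDR, VWF and TEK of endothelium lay under it. Above it were 3 of 6 leukocyte markers (CD68, CD14 and LYZ) and 1 of 5 endothelial markers (PECAM1). So were 5 of 7 fibroblast markers (COL1A1, PDGFRA, PDGFRB, COL1A2 and COL3A1). Among these leukocyte, endothelial and fibroblast markers, CD68, CD14 and COL1A1 lay furthest above the floor. All 5 hepatocyte-type markers were above the floor too, the lowest, CYP2E1, averaging 4.85. Pairs of arrays had a Pearson correlation of 0.977 to 0.993 over probe sets above the floor.

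**Figure D1:**
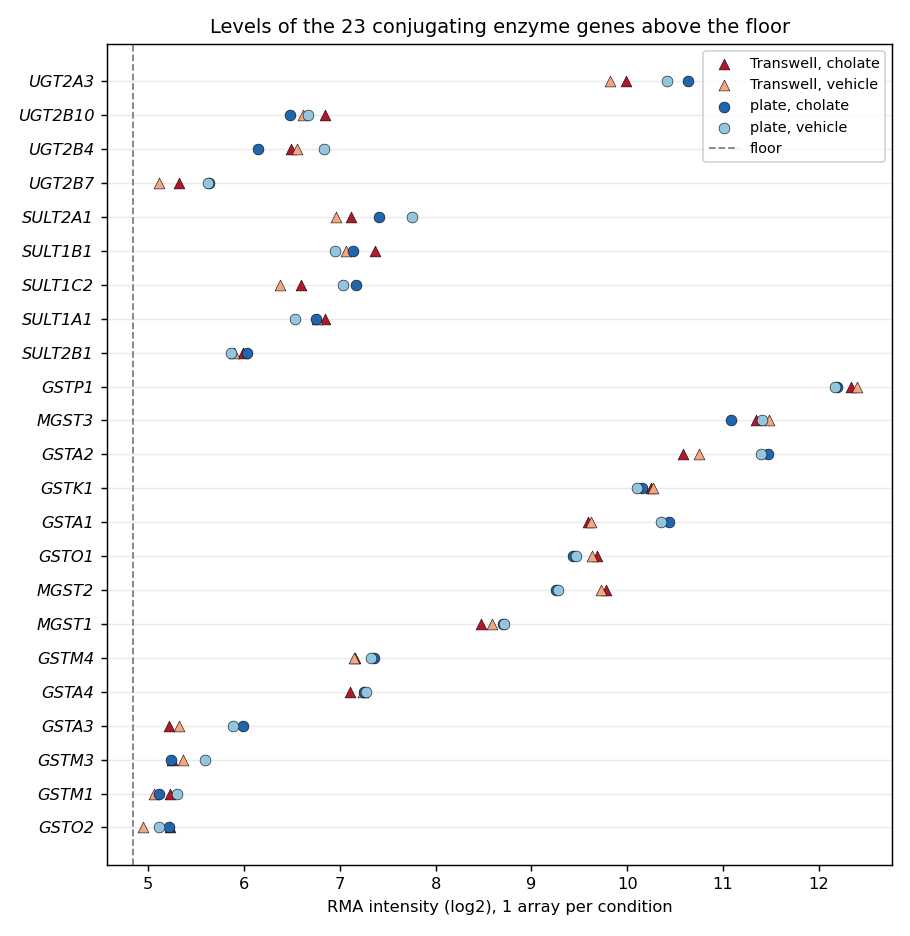
RMA intensity on a log2 scale (horizontal axis) of the 23 members above the floor (rows, by family) on each of the 4 arrays; triangles are Transwell, circles plates, and the dashed line is the floor of 4.84. Both Transwell symbols lie left of both plate symbols in GSTA1, GSTA2, GSTA3, GSTA4, UGT2A3, UGT2B7, SULT1C2, SULT2A1, MGST1 and GSTM4. They lie right of both plate symbols in MGST2, GSTP1, GSTK1, GSTO1 and SULT1A1.

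The first comparison asked how Transwell culture differed from plate culture, once in cholate and once in vehicle. The alpha-class glutathione transferase genes GSTA1 and GSTA2 and the bile acid UGT gene UGT2A3 read at least 1.5-fold lower on Transwell in both treatments, GSTA3 in cholate, and the sulfotransferase genes SULT1C2 and SULT2A1 in vehicle. None of them passed the model fitted across all arrays, given further on. At least 1.5-fold lower were 4 members of 23 in cholate and 5 in vehicle (17.4% and 21.7%), where 3.75% and 3.16% of the 12900 genes above the floor were. Of these, GSTA1, GSTA2 and UGT2A3 were past 1.5-fold in both treatments, 3 of 23 members (13.0%) against 1.84% of all genes, and 0 members were that much higher in both, against 1.19%. No member was 1.5-fold higher on Transwell in either treatment, where 4.02% of all genes were in cholate and 1.93% in vehicle. The median over the members was 0.01 log2 in cholate and -0.18 in vehicle, beside 0.02 and 0.02 over all genes. Members in the same family share sequence and position, so they are not independent of each other.

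The alpha-class genes GSTA1, GSTA2, GSTA5, GSTA3 and GSTA4 lie next to each other on chromosome 6 and, for GSTA1 and GSTA2, encode the glutathione transferases that are abundant in liver and small intestine and also bind bilirubin and bile acids. The proximal promoters of GSTA1, GSTA2 and UGT2A3 are shown as those of the 3 members past 1.5-fold in both treatments, and that of GSTA3 as a neighbour of the first 2 with a different promoter. Those of SULT1C2, which holds a match given with the motifs, and SULT2A1, which holds none, are not printed. The windows run from 250 bases before to 50 after the annotated start, taken from RefSeq, and capitals mark a half-site of the factor HNF1 (GTTAAT, or ATTAAC on the other strand) or a site of CDX factors (TTTATG).
GSTA1 (GRCh38.p14, chr6:52803767-52804066, minus strand): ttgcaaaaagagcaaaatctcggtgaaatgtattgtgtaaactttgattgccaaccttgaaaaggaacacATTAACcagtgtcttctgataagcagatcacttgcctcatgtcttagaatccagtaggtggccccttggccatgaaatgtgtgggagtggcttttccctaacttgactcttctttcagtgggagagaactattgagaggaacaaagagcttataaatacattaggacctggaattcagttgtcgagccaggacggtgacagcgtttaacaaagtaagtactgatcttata
GSTA2 (GRCh38.p14, chr6:52763426-52763725, minus strand): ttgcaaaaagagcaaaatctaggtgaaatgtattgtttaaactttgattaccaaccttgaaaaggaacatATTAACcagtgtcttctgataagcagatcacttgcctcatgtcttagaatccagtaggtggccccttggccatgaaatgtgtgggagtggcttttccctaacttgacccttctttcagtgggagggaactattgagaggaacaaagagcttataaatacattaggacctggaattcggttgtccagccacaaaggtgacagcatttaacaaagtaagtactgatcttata
GSTA3 (GRCh38.p14, chr6:52909649-52909948, minus strand): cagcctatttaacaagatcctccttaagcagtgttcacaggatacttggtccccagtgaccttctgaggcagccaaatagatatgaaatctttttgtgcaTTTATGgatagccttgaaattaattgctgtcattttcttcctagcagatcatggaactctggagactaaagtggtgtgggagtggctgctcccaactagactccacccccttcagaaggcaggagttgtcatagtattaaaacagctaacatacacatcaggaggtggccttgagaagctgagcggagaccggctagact
UGT2A3 (GRCh38.p14, chr4:68951755-68952054, minus strand): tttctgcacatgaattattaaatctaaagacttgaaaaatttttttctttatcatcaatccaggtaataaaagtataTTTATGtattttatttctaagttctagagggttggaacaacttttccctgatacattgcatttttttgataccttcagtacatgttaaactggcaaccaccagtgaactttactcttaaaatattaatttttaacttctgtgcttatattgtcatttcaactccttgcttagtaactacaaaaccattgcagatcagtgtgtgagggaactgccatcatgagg

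The windows of GSTA1 and GSTA2 were identical at 96.0% of 300 aligned bases, and both held the HNF1 half-site at position -180 from the start. That of GSTA3 was 51.5% identical to GSTA1 in a global alignment, and pairs of other GSTA windows that involve GSTA4 or GSTA5 lay between 45.4% and 48.5%. The HNF1 half-site occurred on either strand in 6.88% of all 35116 promoter windows and in 2 of the 18 members above the floor that have 1 window in the table, GSTA1 and GSTA2. The CDX letters occurred in 10.6% of all windows and in 6 of the 18, GSTA3, GSTM3, GSTO1, UGT2A3, UGT2B10 and UGT2B7. Among these 6, GSTO1 was higher on Transwell in both treatments and GSTA3, UGT2A3 and UGT2B7 were lower. GSTM3 and UGT2B10 had opposite signs in the 2 treatments. The core of the antioxidant response element (TGACNNNGC) occurred in 13.3% of all windows and in 6 members, GSTA4, GSTM1, GSTO1, GSTP1, SULT1C2 (at position -62) and UGT2B10. An AP-1 site (TGANTCA) was in 7.71% of all windows and, among the 18, in GSTP1. The HNF4 core (CAAAGTCCA) was in 0.384% of all windows and in 0 of the 18. Both strands were searched, and a match is only a run of letters in this window.

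GSTA1 read 9.59 in cholate and 9.62 in vehicle on Transwell, against 10.43 in cholate and 10.35 in vehicle on plates. GSTA2 read 10.58 in cholate and 10.75 in vehicle on Transwell, against 11.47 and 11.40 on plates. For both genes the 2 Transwell arrays lay below the 2 plate arrays without overlap, and the 2 arrays of a support lay close together. The Transwell minus plate difference of GSTA1 was -0.84 log2 in cholate and -0.73 in vehicle (1.79-fold and 1.66-fold lower). That of GSTA2 was -0.89 in cholate and -0.64 in vehicle (1.86-fold and 1.56-fold lower).

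GSTA3, a glutathione transferase that isomerises steroids, read 5.21 in cholate and 5.32 in vehicle on Transwell, against 5.99 and 5.89 on plates. Its differences were -0.78 log2 in cholate and -0.56 in vehicle, the second of them short of 1.5-fold. These 4 values were among the lower ones above the floor. GSTA4, the enzyme that clears the lipid peroxidation product 4-hydroxynonenal, lies at the end of the same cluster and read 7.11 and 7.24 on Transwell, against 7.25 and 7.28 on plates, each time in cholate and in vehicle. Its differences were -0.14 and -0.04 log2, the smallest of the 4 alpha-class genes above the floor. GSTA5, under the floor on every array, differed by -0.48 in cholate and -0.37 in vehicle. The alpha-class transcripts are close relatives, and whether their probe sets also detect each other was not tested.

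**Figure D2:**
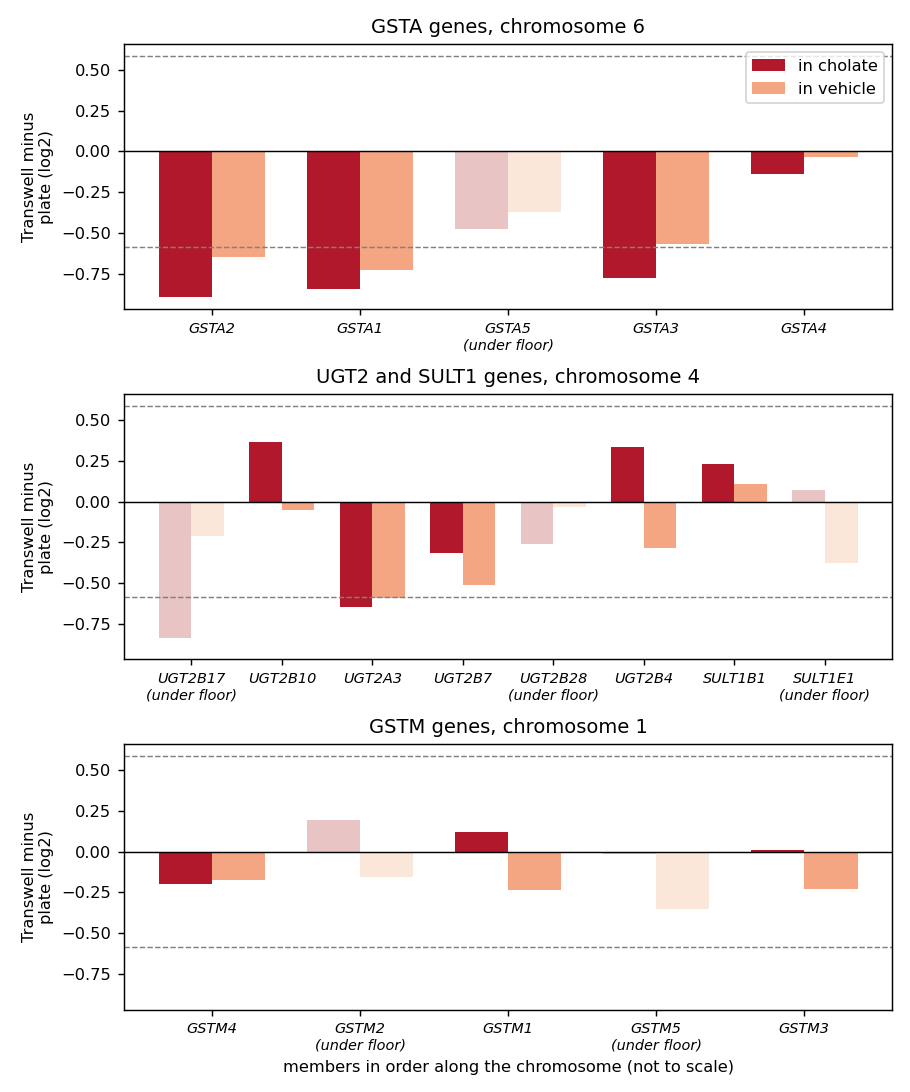
Transwell minus plate difference (log2, vertical axis) of the members that lie together on chromosome 6, 4 and 1, in their order along the chromosome and not to scale; dark red bars are cholate, light bars vehicle, pale ones genes under the floor, and dashed lines mark 1.5-fold. On chromosome 6, GSTA2, GSTA1 and GSTA3 stand between -0.56 and -0.89, and the GSTM genes on chromosome 1 stay between -0.35 and 0.19.

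UGT2A3 glucuronidates bile acids and lies on chromosome 4 among the UGT2B genes. It read 9.99 in cholate and 9.82 in vehicle on Transwell, against 10.63 in cholate and 10.42 in vehicle on plates. The groups did not overlap, and the difference was -0.64 log2 in cholate and -0.59 in vehicle (1.56-fold and 1.51-fold lower). A further probe set of the gene gave -0.41 and -0.49, the same direction but short of 1.5-fold. UGT2B7, which glucuronidates opioids and steroids, read 5.32 in cholate and 5.11 in vehicle on Transwell, against 5.64 and 5.62 on plates. Both Transwell values were the lower ones, with differences of -0.31 and -0.51 log2.

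The other UGT2B members above the floor did not share that order. UGT2B10, an enzyme of nicotine and amine drugs, read 6.85 in cholate and 6.62 in vehicle on Transwell, against 6.48 and 6.67 on plates, so the supports overlapped. UGT2B4, a bile acid UGT known as a target of the bile acid receptor FXR, read 6.49 in cholate and 6.555 in vehicle on Transwell, against 6.15 and 6.84 on plates. The plate values of UGT2B4 lay on either side of both Transwell values, with differences of 0.34 log2 in cholate and -0.28 in vehicle. UGT2B17, an androgen UGT under the floor on every array, differed by -0.83 in cholate and -0.21 in vehicle.

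Several probe sets of these families carry more than 1 symbol and were assigned to no gene: there were 11 of them, 7 above the floor, with 5 distinct sets of values. A probe set with 5 UGT2B symbols read 9.61 in cholate and 9.52 in vehicle on Transwell, against 10.55 and 10.21 on plates. One with 2 UGT2B symbols, present in 2 copies with the same values, read 8.51 and 8.47 on Transwell, against 9.53 and 9.25 on plates. These were -0.94 and -0.70 log2, and -1.02 and -0.79, lower on Transwell in cholate and in vehicle by more than any single UGT2B member above the floor. The probe set with 9 UGT1A symbols differed the other way, at 0.32 in cholate and 0.26 in vehicle. Another UGT2B probe set, with 7 symbols, differed by -0.09 and -0.21, and one with 2 GSTT symbols by -0.34 and -0.19.

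Among the sulfotransferase genes, SULT1C2, whose enzyme acts on small phenols, read 6.60 in cholate and 6.38 in vehicle on Transwell, against 7.17 in cholate and 7.04 in vehicle on plates. The supports did not overlap, and the difference was -0.57 log2 in cholate and -0.66 in vehicle (1.48-fold and 1.58-fold lower). SULT2A1, the sulfotransferase of dehydroepiandrosterone and bile acids, read 7.11 in cholate and 6.96 in vehicle on Transwell, against 7.41 and 7.75 on plates. Its difference was -0.30 log2 in cholate and -0.79 in vehicle, and the vehicle plate array was the highest of the 4. SULT1B1, a thyroid hormone and phenol sulfotransferase of the gut, read 7.36 and 7.06 on Transwell, against 7.14 and 6.95 on plates, in cholate and in vehicle. Its differences of 0.23 and 0.11 log2 were small, and one Transwell value lay between the plate values. SULT1A1, the main phenol sulfotransferase, differed by 0.09 and 0.23, and SULT2B1, which sulfates cholesterol and pregnenolone, by -0.05 and 0.02.

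The 2 members with the brightest probe sets, GSTP1 and MGST3, differed by 0.25 log2 or less between supports. GSTP1, the pi-class enzyme common in epithelia and tumours, read 12.33 in cholate and 12.40 in vehicle on Transwell, against 12.19 and 12.17 on plates. MGST3, a membrane-bound transferase and peroxidase, read 11.34 in cholate and 11.48 in vehicle on Transwell, against 11.09 and 11.41 on plates. GSTP1 was slightly higher on both Transwell arrays, at 0.14 and 0.22 log2, while the Transwell and plate values of MGST3 overlapped. MGST2, which can make leukotriene C4, had the most positive differences of all members, 0.52 log2 in cholate and 0.46 in vehicle, from 9.78 and 9.73 on Transwell against 9.25 and 9.27 on plates. It stayed under 1.5-fold. The kappa and omega enzymes GSTK1 (0.09 and 0.16) and GSTO1 (0.25 and 0.17) were higher on both Transwell arrays, and MGST1 (-0.23 and -0.12) and GSTM4 (-0.20 and -0.18) were lower on both. The remaining genes GSTM1 (0.12 and -0.23), GSTM3 (0.01 and -0.23) and GSTO2 (0.01 and -0.18) had opposite signs in the 2 treatments.

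**Figure D3:**
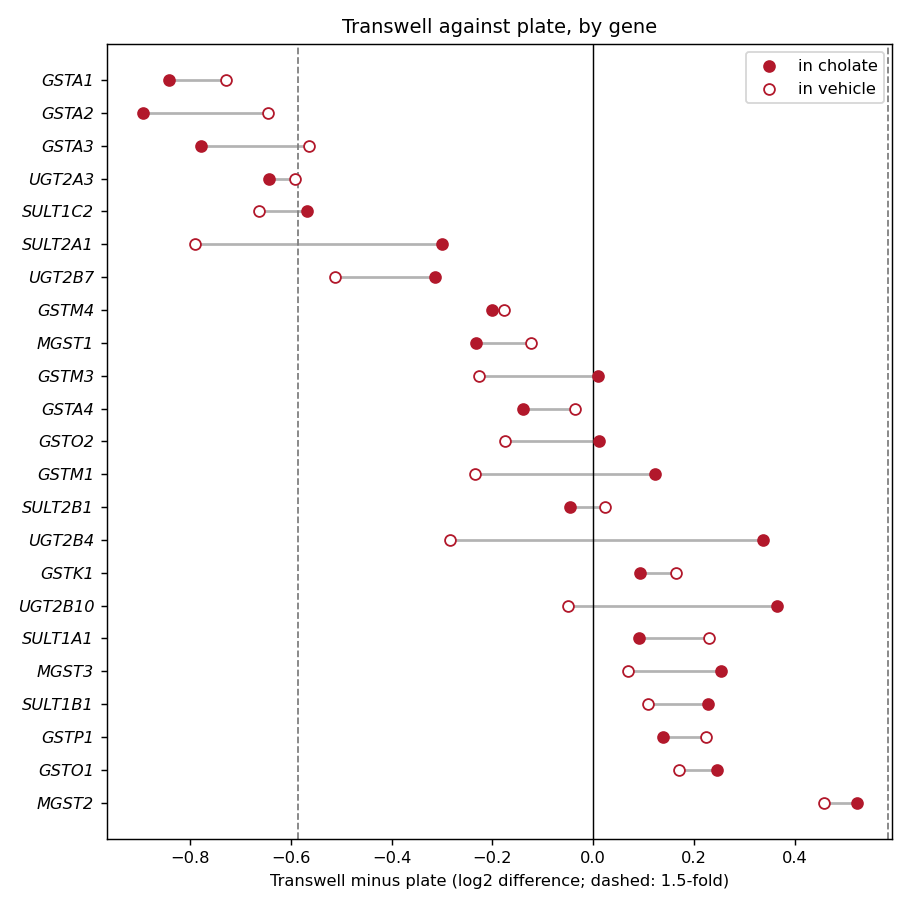
Transwell minus plate difference (log2, horizontal axis) of each member above the floor (rows, ordered by the mean of both treatments); filled circles are cholate, open circles vehicle, lines join the 2 values of a gene, and dashed lines mark 1.5-fold. GSTA1, GSTA2 and UGT2A3 lie beyond the left dashed line in both treatments and MGST2, at 0.52 and 0.46, is the highest.

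In 10 members both Transwell arrays read lower than both plate arrays (43.5%, against 24.8% of all genes), and in 5 both read higher (21.7%, against 31.9%). A model across all 4 arrays, with support and treatment as terms, was fitted to all 19978 probe sets above the floor with limma. The fit has 1 residual degree of freedom, which measures how far the cholate response on Transwell departs from that on plates and not the spread between cultures. For Transwell, 0 members and 0% of all probe sets passed a Benjamini-Hochberg adjusted p of 0.05. The smallest adjusted p of any probe set was 0.086. Without adjustment, 8 members (34.8%) had a p under 0.05, beside 22.6% of all probe sets. They were GSTA1, GSTA2, GSTA3, UGT2A3, UGT2B7, SULT1C2, SULT2A1 and MGST2, the last of them higher on Transwell. The fitted Transwell effect of GSTA1 was -0.78 log2 (SE 0.09, 95% interval -1.04 to -0.53, limma adjusted p = 0.096). That of GSTA2 was -0.77 (SE 0.11, limma adjusted p = 0.11) and that of UGT2A3 -0.62 (SE 0.09, limma adjusted p = 0.11). MGST2 had 0.49 (SE 0.09, limma adjusted p = 0.12).

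The hepatocyte-type markers, all 5 above the floor, were set beside these values because alpha-class transferases are typical of liver. Their summed linear intensity was 7807 in cholate and 7292 in vehicle on Transwell, against 8657 and 8043 on plates. The albumin gene ALB differed by -0.80 log2 in cholate and -1.03 in vehicle, and APOA2 by 0.20 and 0.23. The part of such genes in the result was not tested. The 13 epithelial markers summed to 38609 in cholate and 39279 in vehicle on Transwell, against 38703 and 40988 on plates. Of the 13, 2 were at least 1.5-fold higher on Transwell in cholate (APOA4 and KRT20) and 3 in vehicle (APOA4, ANPEP and CDX2). In either treatment 0 were that much lower. Over all genes 4.02% and 1.93% were higher, and 3.75% and 3.16% lower, in cholate and in vehicle. In pooled RNA, fewer cells of a type and less RNA per cell cannot be told apart.

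The second comparison asked how the members differed between cholate and vehicle after 3 h, on Transwell and on plates, which share no array. It has arrays in common with the first comparison. On Transwell, 0 of 23 were 1.5-fold higher or lower, where 0.357% and 0.736% of all genes were. On plates 0 were higher and 1, UGT2B4, was lower (4.35% of members), where 1.49% and 2.35% of all genes were. The median over members was 0.05 log2 on Transwell and 0.02 on plates, beside -0.01 and -0.03 over all genes, and with each array centred on its median the plate values were -0.05 for members and -0.10 for all genes. Differences ran from -0.17 (GSTA2) to 0.30 (SULT1B1) on Transwell and from -0.69 (UGT2B4) to 0.22 (UGT2A3) on plates.

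UGT2B4 differed by -0.07 log2 on Transwell and -0.69 on plates (1.61-fold lower), its cholate plate array being the lowest of the 4 and its vehicle plate array the highest. Its 2 responses differed by 0.62 log2, the only difference of responses past 1.5-fold among the 23 members above the floor (4.35% of members, where 1.59% of all genes were that much higher on Transwell). UGT2B17, under the floor, had -0.62. With 1 array per condition these differences have no test. SULT2A1 went opposite ways, 0.15 on Transwell and -0.34 on plates, and so did UGT2B10, at 0.23 and -0.19.

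UGT2A3, also a bile acid UGT, was higher in cholate on both supports, by 0.17 log2 on Transwell and 0.22 on plates. Its further probe set gave 0.26 and 0.18. SULT1B1 was higher by 0.30 and 0.18, SULT1C2 by 0.22 and 0.13, SULT1A1 by 0.08 and 0.22, and SULT2B1 by 0.10 and 0.17. Thus 4 of the 5 sulfotransferase genes above the floor had positive values on both supports, all under 1.5-fold. In all, 8 members were above 0 on both supports (34.8%, against 26.1% of all genes) and 5 below 0 on both (21.7%, against 34.7%). The 8 also held GSTO2, UGT2B7 and GSTM4, and the 5 were UGT2B4, MGST1, MGST3, GSTA4 and GSTM3. With each array centred on its median these counts were 6 above 0 (26.1%, against 15.3% of all genes), without UGT2B7 and GSTM4, and 8 below 0 (34.8%, against 50.5%), with GSTM4, GSTP1 and GSTK1 added. MGST3 stood at -0.14 on Transwell and -0.32 on plates, and GSTM3 at -0.12 and -0.36.

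Cholate differences of the alpha-class genes were small. GSTA1 differed by -0.03 log2 on Transwell and 0.08 on plates, GSTA2 by -0.17 and 0.08, and GSTA3 by -0.11 and 0.10. GSTP1 differed by -0.06 and 0.02, and the other GST and MGST genes above the floor lay between -0.36 and 0.29. Under the floor, UGT2B17 reached 0.71 on plates, from 4.82 in cholate against 4.11 in vehicle, and 0.09 on Transwell. The estrogen sulfotransferase gene SULT1E1 had 0.47 on Transwell and 0.03 on plates. The shared UGT1A probe set differed by -0.08 and -0.14.

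In the fit across all 4 arrays, 0 members and 0% of all probe sets passed for cholate at an adjusted p of 0.05. Without adjustment 0 members had a p under 0.05, beside 10.8% of probe sets. The smallest limma adjusted p among members was 0.47, for SULT1B1, with a fitted effect of 0.24 log2 (SE 0.09). UGT2B4 had -0.38 (SE 0.18, limma adjusted p = 0.53), the largest SE of all members because its responses differed most.

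**Figure D4:**
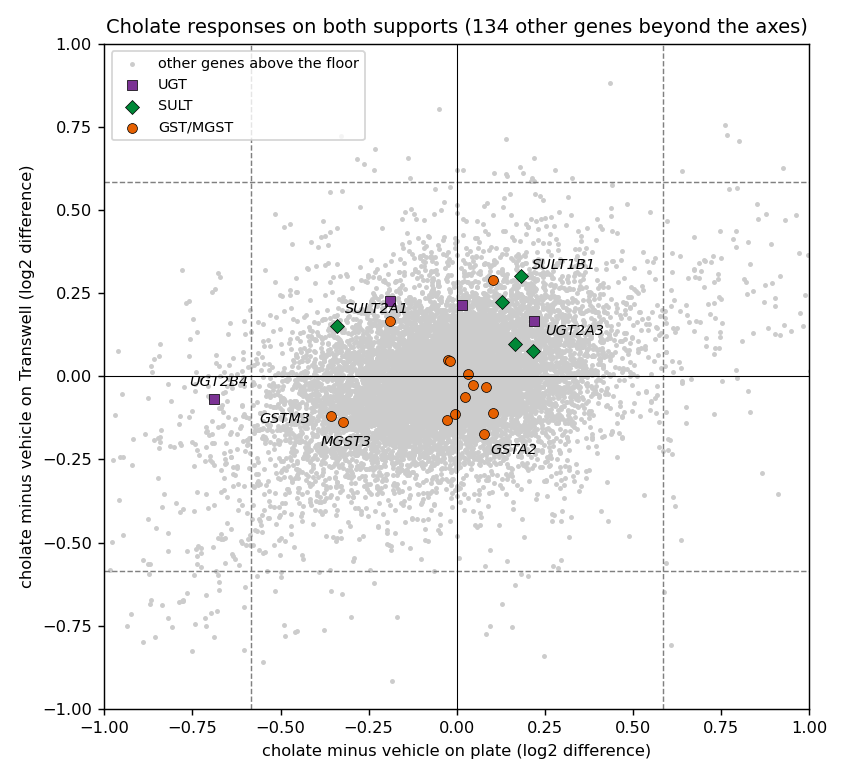
Cholate minus vehicle on plates (horizontal axis) against the same on Transwell (vertical axis), both as log2 differences; coloured symbols are the members above the floor by family, grey points the other genes above the floor, of which 134 lie beyond the axes, and dashed lines mark 1.5-fold. UGT2B4, at -0.69 on plates and -0.07 on Transwell, is the single member past a dashed line.

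Related genes were described as 7 lists with 63 measured genes, 57 of them above the floor. Some lists hold genes that supply or use the donors, export the conjugates or take them apart. The others hold further detoxifying enzymes, and receptors and factors known to control such genes. At least 1.5-fold higher on Transwell were 3 of the 57 in cholate and 6 in vehicle, where 4.02% and 1.93% of all genes were, and lower were 6 and 4, where 3.75% and 3.16% were. For cholate, 1 was higher and 1 lower on Transwell (0.357% and 0.736% of all genes), and 2 were higher and 1 lower on plates (1.49% and 2.35%). No gene of these lists passed the limma fit at an adjusted p of 0.05, since no probe set did.

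The donor genes of glucuronidation were near level. UGDH, the enzyme that makes UDP-glucuronic acid, differed between Transwell and plate by -0.23 log2 in cholate and -0.37 in vehicle, and UGP2 and the transporter gene SLC35D1 by 0.13 and 0.06 and by 0.24 and -0.03. In the sulfate donor list 1 of 7 genes passed 1.5-fold: PAPSS2, a PAPS synthase, read 8.25 in cholate and 8.30 in vehicle on Transwell, against 7.30 and 7.31 on plates. Its differences of 0.953 and 0.995 log2 ran opposite to those of SULT1C2 and SULT2A1. BPNT1, which breaks down the used donor, was higher by 0.37 and 0.33, and the other PAPS synthase gene PAPSS1 differed by 0.15 and -0.34.

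Among 12 genes of glutathione supply, use and breakdown above the floor, 1 was 1.5-fold lower on Transwell in both treatments and 0 were higher. It was CHAC1, which degrades glutathione, at -1.60 log2 in cholate and -1.03 in vehicle, and it was also the one gene of the list past 1.5-fold for cholate, higher by 0.59 on Transwell and 1.16 on plates. The cysteine-making enzyme gene CTH stood at -0.55 log2 in cholate and -0.56 in vehicle. The glutathione peroxidase gene GPX2 was higher by 0.32 and 0.20, and was lower in cholate at -0.23 on Transwell and -0.35 on plates. The list medians for Transwell minus plate were 0.08 and 0.02.

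Of the 6 conjugate pumps, ABCG2, an apical pump that carries sulfated steroids, was higher on Transwell by 1.73 log2 in cholate and 1.58 in vehicle. The other way stood ABCC3, a basolateral pump of glucuronides and bile acids, at -0.74 and -0.35, ABCC5 at -0.54 and -0.51 and ABCC4 at -0.38 and -0.35. ABCC5 was also lower in cholate, at -0.54 on Transwell and -0.50 on plates. Among 6 deconjugating and mercapturate-processing genes, STS, the steroid sulfatase, read 8.13 in cholate and 9.06 in vehicle on Transwell, against 8.58 in cholate and 9.78 in vehicle on plates. Its cholate differences of -0.92 on Transwell and -1.20 on plates were far larger than those of any sulfotransferase above the floor. GUSB, the beta-glucuronidase, differed in cholate by 0.05 and 0.14, and ACY3, which handles mercapturates, was higher on Transwell by 0.39 and 0.29.

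Of 9 other detoxifying genes above the floor, EPHX1, the microsomal epoxide hydrolase, was lower on Transwell at -1.15 log2 in cholate and -0.84 in vehicle, and EPHX2 at -0.65 and -0.26. The quinone reductase gene NQO1 was higher by 0.33 and 0.41, and the methyltransferase gene TPMT by 0.41 and 0.33. Among 14 receptors and factors known to control such genes, CDX2, a transcription factor of intestinal identity, read 9.48 in cholate and 9.68 in vehicle on Transwell, against 8.92 and 8.68 on plates. It was past 1.5-fold in vehicle alone. Of the 14, 1 was 1.5-fold higher on Transwell in cholate and 4 in vehicle (4.02% and 1.93% of all genes), and 2 and 1 were lower (3.75% and 3.16%). The one higher in cholate was NR1I3, the nuclear receptor CAR, at 0.68 in cholate and 0.62 in vehicle, named after its values were seen. The glucocorticoid receptor gene NR3C1 stood at -0.90 and -1.09, past 1.5-fold in both treatments. The other one lower in cholate was CEBPB, at -0.67 in cholate and 0.04 in vehicle. FOXA2 stood at -0.49 and -0.25, short of 1.5-fold. CEBPB was higher in cholate by 0.13 on Transwell and 0.84 on plates. This list had a median cholate difference of -0.01 on Transwell and 0.21 on plates.

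**Figure D5:**
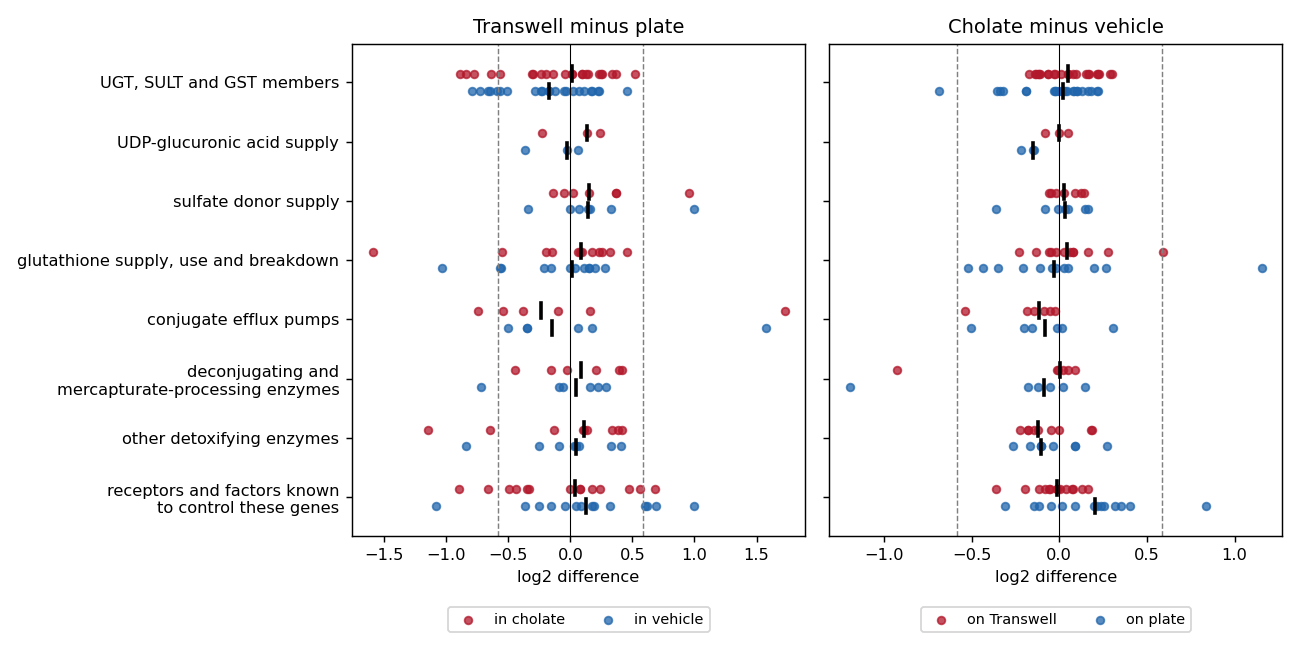
Log2 differences of the members and of 7 lists of related genes (rows), each point 1 gene above the floor and each black bar a median; the left panel is Transwell minus plate in cholate (red) and in vehicle (blue), the right panel cholate minus vehicle on Transwell (red) and on plates (blue), and dashed lines mark 1.5-fold. CHAC1 at -1.60 and ABCG2 at 1.73 are the outermost points of the left panel, and STS at -1.20 and CHAC1 at 1.16 those of the right.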

How the data were processed

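RNA of Caco-2 cells was measured on 4 arrays, 1 per condition. The authors deposited log2 intensities, 1 per probe set and array, computed with RMA per the submitters' processing notes; no source used here names the software or its version. RMA makes the arrays' distributions alike, so a shift shared by most transcripts would not show. The number of arrays limits the precision.

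Members were matched by symbol in the platform annotation, and all 36 were found under the same symbol in a RefSeq table (GRCh38.p14). The members and lists were chosen with earlier results of these data known. Differences are between 2 arrays, counted at 1.5-fold. limma 3.58.1 in R 4.3.3 (lmFit, eBayes, 2-sided, Benjamini-Hochberg) was fitted to all probe sets above the floor. It was tried on simulated data with cholate effects alone, larger than any difference of the members, so smaller effects and support effects were not tried. Values on every array are given for members above the floor that reached 1.5-fold in any comparison or were among the 3 brightest of their family, and for others in part; from each list of related genes, up to 4 are named, 2 by the size of the mean Transwell minus plate difference and 2 by that of the mean cholate difference. UGT2B7, GSTA4 and MGST2 are given in full outside that rule, chosen after their values were seen. Alternatives were other scalings (median, quantile, cyclic loess), floors, probe set averaging, a 2-fold threshold and a variance trend. Promoter windows were aligned and searched in Python 3.11.15.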

Additional observations from a re-analysis of the deposited data

How the results depend on the processing

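No paired analysis was possible because each condition has 1 array and the labels give no replicate numbers; the limma fit already has support and treatment as terms. Across all alternatives 79 counts and medians stayed close to those reported and 7 counts moved. The members' median cholate difference on plates, 0.02 as deposited, was -0.05 with each array centred on its median, a scaling that put all genes at -0.10, against -0.03 as deposited. At 2-fold, 0 members were called in any of the 4 comparisons. With no floor, UGT2B17 made 1 member higher in cholate on plates; with the floor at the 60th percentile 0 were lower there, since UGT2B4 was not among the 16 members left. UGT2A3 stood close to 1.5-fold: averaging its probe sets left 3 members lower on Transwell in cholate and 4 in vehicle, and median centring left 4 in vehicle. In limma's fit for Transwell, 5 members passed an adjusted p of 0.05 with the floor at the 60th percentile (GSTA1, GSTA2, MGST2, SULT1C2 and UGT2A3, beside 807 of 13319 probe sets) and 3 with a variance trend (GSTA1, GSTA2 and UGT2A3, beside 293 of 19978), against 0 as deposited and under the other 5 alternatives. The limma adjusted p of GSTA1 ranged from 0.023 to 0.18 over these settings. For cholate 0 members passed under any setting. Signal near background limits the 13 members under the floor.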
